A study of Homo sapiens with 2 samples.

Results

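The U2AF family is described here by 6 genes of a U2AF2 eCLIP count table: U2AF2, U2AF1, U2AF1L4, ZRSR2, the partner gene SF1, and AC008735.2, an antisense RNA gene on the other strand of U2AF2. They were chosen by symbol, and each was found among the 58347 genes of the table through its Ensembl identifier, which in all 6 was the same as in GENCODE 29, version included: ENSG00000063244.12 for U2AF2, ENSG00000160201.11 for U2AF1, ENSG00000161265.14 for U2AF1L4, ENSG00000169249.12 for ZRSR2, ENSG00000168066.20 for SF1 and ENSG00000267523.1 for AC008735.2. Of all genes in the table, 58084 had a model in GENCODE 29, so the counts may rest on another annotation. eCLIP recovers, with an antibody, the RNA that ultraviolet light has crosslinked to a protein, and sequences it. The cells were HEL, an established human erythroleukemia line, grown without treatment, and the samples were 1 group of 2 biological replicates immunoprecipitated with 8 µg of an antibody against U2AF2. Input libraries were not analysed here, so a level is the number of reads assigned to a gene and not an enrichment. More RNA cannot be told apart from more binding per RNA. Of the uniquely mapped reads, 2.66% in replicate 1 and 2.60% in replicate 2 were assigned to genes. The sources used here do not state whether reads in introns were among those assigned. Reads at intronic binding sites may therefore lie outside the levels, which need not hold all the U2AF2 binding on a gene.

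U2AF is the heterodimer that marks the 3' end of introns at the start of spliceosome assembly. Its large subunit, U2AF2, binds the polypyrimidine tract, a stretch of C and U before the 3' splice site, and its small subunit, U2AF1, contacts the AG dinucleotide that ends the intron. SF1 binds the branch point and holds U2AF2 there until the U2 snRNP takes its place. U2AF1L4 is a paralog of the small subunit, and ZRSR2 is a related protein that serves the minor spliceosome. Splicing factors of this family, U2AF1 and ZRSR2 among them, are recurrently mutated in myeloid malignancies.

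AC008735.2 (chromosome 19, 55661901 to 55674715, minus strand, GRCh38) has 2 merged exons of 561 bases in all. The longer one, of 494 bases, lies in intron 5 of U2AF2 and ends 107 bases before the 3' splice site of U2AF2 exon 6. Intron 5 is 1312 bases long in the coding transcript used for exon numbers, which has 12 exons. The stretch of this exon nearest to U2AF2 exon 6 is shown on the U2AF2 strand, 5' to 3', because it carries the feature in which AC008735.2 stood apart from other opposite-strand genes. It covers chr19:55662095-55662394 on the plus strand (GRCh38), is intronic for U2AF2, and was read as the reverse complement of the GENCODE 29 transcript of AC008735.2. Capitals mark runs of at least 10 bases that are all C or T.

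U2AF2 intron 5, opposite AC008735.2: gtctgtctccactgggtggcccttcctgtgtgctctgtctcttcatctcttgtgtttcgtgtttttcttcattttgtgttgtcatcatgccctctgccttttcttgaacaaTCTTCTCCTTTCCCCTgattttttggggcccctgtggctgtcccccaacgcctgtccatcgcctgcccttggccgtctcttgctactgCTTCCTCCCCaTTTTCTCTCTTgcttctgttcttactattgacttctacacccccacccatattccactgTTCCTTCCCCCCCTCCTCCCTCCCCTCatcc

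On the U2AF2 strand C and T made up 77.3% of these 300 bases, with 4 marked runs, the longest of 27 bases. The other strand, that of AC008735.2 itself, held 0 such runs. Windows of the same length were taken at the same end of every exon of at least 300 bases in non-coding genes opposite a protein-coding gene. Of these 5574 windows, 46.4% held at least 1 such run on the protein-coding strand and 37.9% on their own strand. Only 0.987% held at least 4 on the protein-coding strand, this window included, and 3 windows, again with this one, were as rich in C and T. Over the whole exon of 494 bases the C and T share was 79.6%, with 10 runs. In windows of 50 bases the share peaked at 92.0%, about 551 bases before exon 6 and outside the printed stretch.

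This exon of AC008735.2 reaches into no U2AF2 exon of a coding transcript. Its first 46 bases, counted from the left, lie under an exon of a U2AF2 transcript annotated for nonsense-mediated decay (55661771 to 55661946). The shorter exon of AC008735.2, of 67 bases, lies within the last U2AF2 exon of another coding transcript. The exons of AC008735.2 held 0 annotated 3' splice sites of U2AF2, whereas its span, introns included, covered 8 of the 14.

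**Figure D1:**
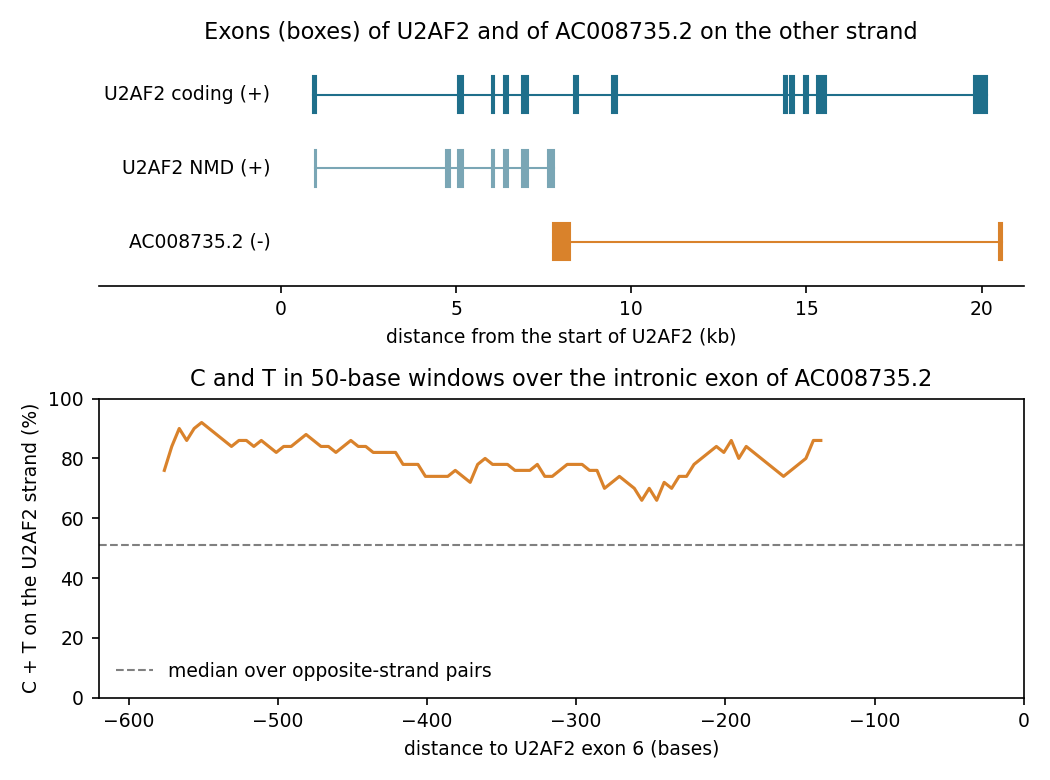
The upper panel maps the exons (boxes) of a coding and a nonsense-mediated decay (NMD) transcript of U2AF2 and of AC008735.2 by distance from the start of U2AF2 in kb. The lower panel plots the percentage of C and T on the U2AF2 strand in windows of 50 bases over the longer AC008735.2 exon, by distance to U2AF2 exon 6, against the median of 51.1% over opposite-strand non-coding genes (dashed), and every window lies above that line.

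The counts of these 2 genes differed widely. AC008735.2 held 301 counts in replicate 1 (exact 95% Poisson interval 268 to 337) and 453 in replicate 2 (412 to 497). U2AF2 held 18 (10.7 to 28.4) and 30 (20.2 to 42.8). Replicate 2 was the deeper library in total, with 1350116 counts on genes against 995428. After scaling to library size, as counts per 1000000 (CPM), AC008735.2 stood at 319 ± 29.2 CPM and U2AF2 at 20.2 ± 3.29 CPM (SD, n = 2). Intervals cover counting error only. Duplicate removal is not stated in the sources used here, so reads may repeat a molecule.

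Per kb of merged exon AC008735.2 held 537 counts in replicate 1 and 807 in replicate 2, and U2AF2 held 4.37 and 7.29. AC008735.2 held more in both libraries, and each gives nearly the same ratio. The non-coding gene also held more in both libraries in 68.5% of 3610 opposite-strand pairs, described below. AC008735.2 over U2AF2 was 123 in replicate 1 (exact 95% interval 76.3 to 210) and 111 in replicate 2 (76.5 to 166), or 115 over both (86.0 to 158). Its size rests on the length used, at 25.2 per kb of gene span and 15.7 with no length. No source used here states the strand setting of the count, so the strand that the reads assigned to either gene came from cannot be told apart. Had the strands been turned in counting, the 301 and 453 counts would be reads of the U2AF2 strand within the exons of AC008735.2, and the 18 and 30 counts would be reads of the other strand within the exons of U2AF2. The ratio of 115 would then compare those reads and not the RNA of the genes named. The counts could not simply be exchanged, since the genes share only 113 exonic bases, and the table then holds no count of U2AF2 exons on their own strand. The levels and ranks of all members below are those of the counts as assigned.

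**Figure D2:**
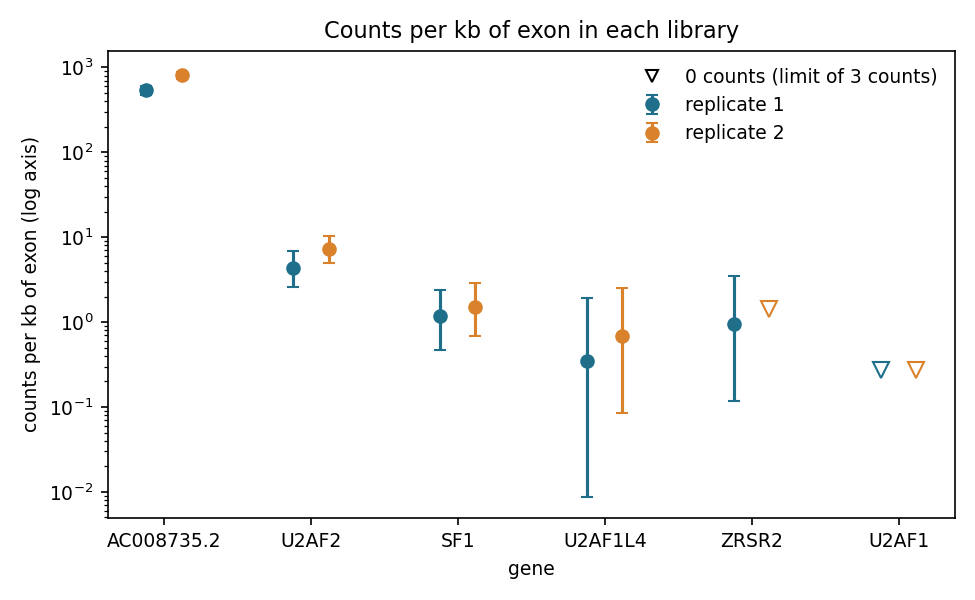
Counts per kb of merged exon (log axis, not scaled to library size) are plotted for each gene and replicate with exact 95% Poisson intervals. Open triangles stand at the limit of 3 counts for a library with 0. For U2AF1 that limit is spread over all exonic bases, most of them repeated at another locus. AC008735.2 lies at 537 and 807, U2AF2 at 4.37 and 7.29, and the other genes have intervals that overlap each other or stand at the limit.

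As assigned, AC008735.2 ranked 90 of 5452 antisense genes by counts per kb of exon. The median antisense gene held 9.12 per kb over both libraries, and AC008735.2 held 1344. Of antisense genes, 37.6% reached 10 counts in both replicates, AC008735.2 among them. Nearest to it in level over the 2 libraries were the antisense genes AL138789.1 (297 and 446 counts), NAPA-AS1 (308 and 448) and AL139011.1 (311 and 452).

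A higher count in the opposite-strand gene was the usual order in this table. Among 3610 pairs of a long non-coding gene and the 1 protein-coding gene opposite it, with at least 10 counts in the pair, the non-coding gene held more counts per kb of exon in both libraries in 68.5%. The median log2 ratio over these pairs, with 0.5 added to each count, was 3.39 (quartiles -0.35 and 6.27). The pair of AC008735.2 and U2AF2 stood at 6.83, the 79.8th percentile. Its direction is therefore shared with most pairs, and its size lies within their upper part. The lean to the opposite-strand gene thus runs through the table, and the part of the unstated strand setting in it was not tested.

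**Figure D3:**
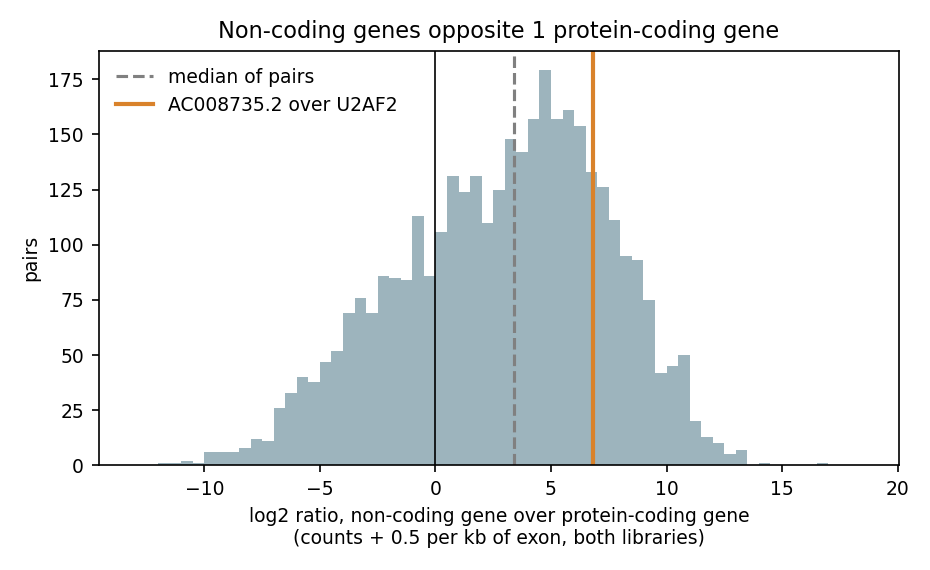
The histogram shows the log2 ratio of counts per kb of exon, non-coding over protein-coding gene, for 3610 opposite-strand pairs with both libraries summed. The median of 3.39 (dashed) and the value of 6.83 for AC008735.2 over U2AF2 (orange) both lie right of 0.

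In base composition AC008735.2 stood at the edge of these genes. Read on the protein-coding strand, its exons were 77.5% C and T, the highest share of all 5012 non-coding genes with 1 opposite protein-coding gene, whose median was 51.1% (quartiles 48.9 and 53.3). Its longest run of C and T on that strand, 27 bases, stood at the 97.0th percentile, and the median longest run was 12. Across these genes the share of C and T on the protein-coding strand had a Spearman rho of 0.03 with counts per kb. Such a correlation in sparse counts is no finding, and genes share libraries and loci. In the 1003 genes richest in C and T the median was 14.8 counts per kb, and in the 1003 poorest it was 8.84, with quartiles that overlap widely (0 to 113 and 0.167 to 60.9).

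The same genes were then set by distance to the nearest 3' splice site of their protein-coding gene, a comparison chosen after the position of AC008735.2 was seen. The median was 48.7 counts per kb for 1261 genes whose exons held such a site (quartiles 1.62 and 315). It was 22.6 for 520 genes whose nearest site lay within 200 bases (quartiles 0 and 155), the class of AC008735.2, and 6.55 for 3231 genes farther away (quartiles 0 and 43.7). The 3 ranges overlap widely, and AC008735.2 with 1344 lay above the upper quartile of each. These are descriptions of genes in 2 libraries and carry no test.

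**Figure D4:**
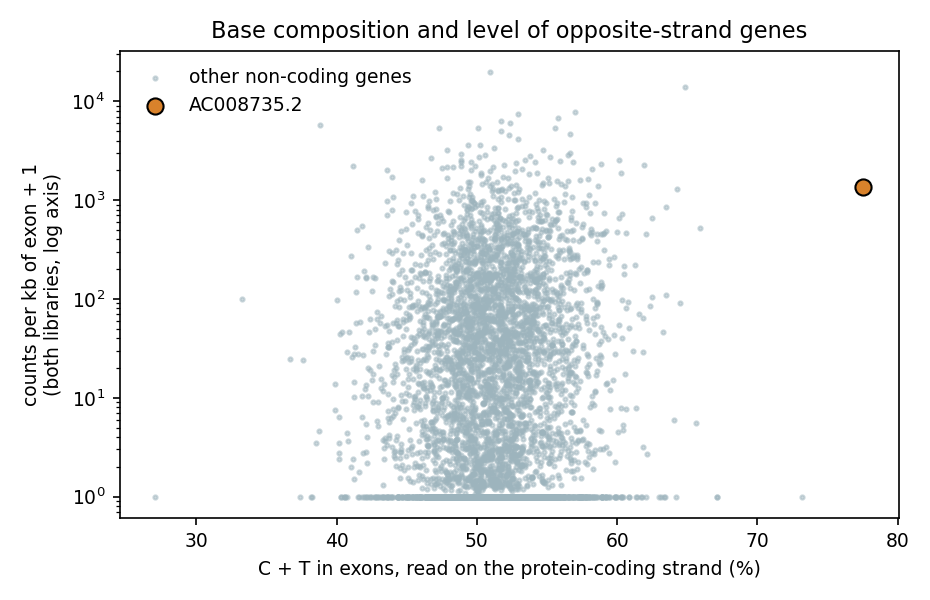
Each point is a non-coding gene opposite 1 protein-coding gene, with the percentage of C and T in its exons on the protein-coding strand (x axis) and its counts per kb of exon plus 1 over both libraries (y axis, log). AC008735.2 (orange) lies farthest right at 77.5%, apart from the cloud centred near 51.1%, which shows no slope by eye.

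U2AF2 itself (chromosome 19, 55654146 to 55674715, plus strand) held more counts per kb of exon than most protein-coding genes. As assigned, its 11.7 counts per kb over both libraries lay at the 82.6th percentile of all 19835 protein-coding genes, whose median was 0.911. Its 2 neighbours on the same strand held similar or fewer counts. They were CCDC106, 984 bases upstream, with 16 and 18 counts, and EPN1, an endocytic adaptor gene 510 bases downstream, with 2 and 10. SIGLEC6 and TANC1, protein-coding genes with the same 18 and 30 counts, were among the nearest to U2AF2 in level.

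SF1 (chromosome 11, 64764606 to 64778786, minus strand) had the next level, with 7 counts in replicate 1 and 9 in replicate 2. Its mean was 6.85 ± 0.136 CPM (SD, n = 2), and no gene covered its exons on either strand. Per kb of exon, U2AF2 exceeded SF1 by 4.35 times over both libraries (exact 95% interval 2.43 to 8.21). SF1 held 2.68 counts per kb. Among the 11463 protein-coding genes with no gene opposite their exons, whose median was 0.536, that is percentile 79.2, and the level of U2AF2 would be percentile 92.2. AP001462.1, a long intergenic RNA gene 167 bases away on the other strand, held 1 and 0 counts.

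The small subunit gene U2AF1 (chromosome 21, 43092956 to 43107587, minus strand) held 0 counts in both libraries. Spread over all 11112 exonic bases, a limit of 3 counts is 0.270 per kb in each. Over the bases not repeated at another locus the limit is higher, because reads mapping to several places are outside the counts. U2AF1 was also the member whose sequence is least its own. U2AF1L5 (chromosome 21, 6484623 to 6499261, minus strand), an annotated second copy of U2AF1 in this genome build, had 0 and 1 counts. The first 120 coding bases of both genes and of the paralog U2AF1L4 are shown to compare a copy with a paralog. They come from GENCODE 29 transcripts, counted from 1 at the start codon, and capitals mark bases that differ from U2AF1.
U2AF1: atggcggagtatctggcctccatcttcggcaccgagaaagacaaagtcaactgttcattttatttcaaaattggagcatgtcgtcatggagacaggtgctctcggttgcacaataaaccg
U2AF1L5: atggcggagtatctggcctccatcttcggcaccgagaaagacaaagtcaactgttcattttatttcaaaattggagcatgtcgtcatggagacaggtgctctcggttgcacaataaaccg
U2AF1L4: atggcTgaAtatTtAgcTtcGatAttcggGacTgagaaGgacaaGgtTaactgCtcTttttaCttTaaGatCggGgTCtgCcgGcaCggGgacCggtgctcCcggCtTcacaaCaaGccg

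U2AF1 and U2AF1L5 were identical over all 720 coding bases, whereas U2AF1L4 differed at 31 of the 120 bases shown and matched U2AF1 at 72.9% of 645 aligned coding bases. The longest stretch that U2AF1 and U2AF1L4 shared in that alignment was 21 bases. Words of 50 bases were then taken from every transcript of each member and searched in the transcripts of genes at other loci, on both strands. Of the words of U2AF1, 94.3% occurred in U2AF1L5, and 5.67% occurred in no gene elsewhere. With words of 100 bases, the read length in the labels, 10.6% did. Reads mapping to several places are outside the gene counts, and the table tallied 22.1% and 20.7% of all reads as such in the 2 libraries. The part of such reads in the count of 0 for U2AF1 was not tested. Other sequence matches of U2AF1 were slight, the next being AC021231.2, a processed pseudogene that held 5 and 1 counts and shared 0.453% of the words.

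Of the other members, U2AF2, SF1 and AC008735.2 shared 0 words of 30, 50 or 100 bases with genes at other loci. U2AF1L4 kept 99.1% of its 50-base words to itself and ZRSR2 80.9%. Introns without an annotated transcript, and sites outside genes, were not searched.

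**Figure D5:**
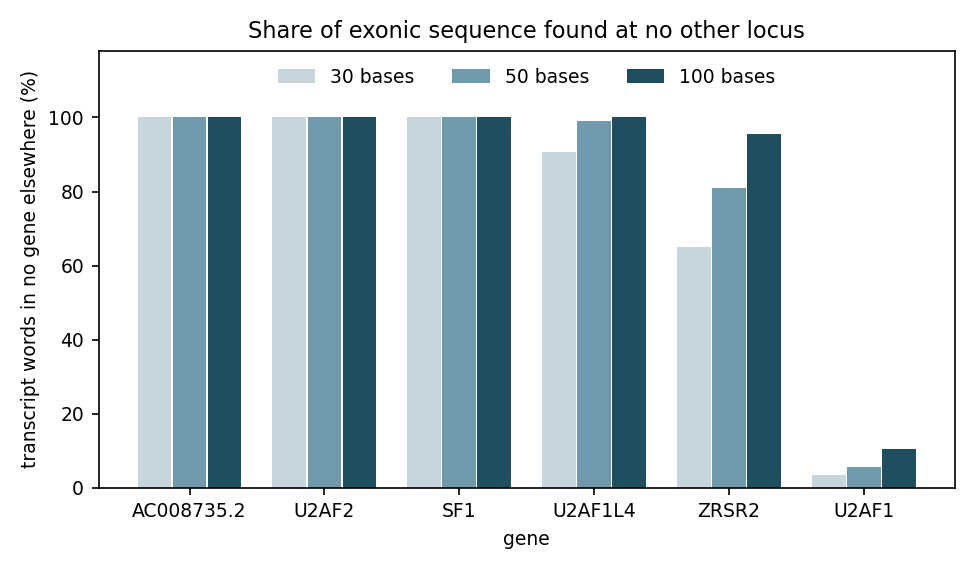
Bars give, for each member, the percentage of transcript words of 30, 50 or 100 bases that occur in no gene at another locus. U2AF1 stays between 3.38% and 10.6%, ZRSR2 lies between 65.1% and 95.5%, U2AF1L4 is at 90.8% or more, and the other 3 genes are at 100%.

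U2AF1L4 (chromosome 19, 35742464 to 35745445, minus strand) held 1 count in replicate 1 and 2 in replicate 2, both at or under the limit that a count of 0 allows. On its own strand it shares 713 of its 2875 exonic bases (24.8%) with AD000671.2, a protein-coding gene model that runs through it and held 0 counts in both libraries. How reads over shared bases of the same strand were counted is not stated in the sources used here. On the opposite strand PSENEN, which encodes a subunit of gamma-secretase, overlaps U2AF1L4 head to head for 332 bases. PSENEN held 170 and 220 counts, or 167 ± 2.54 CPM (SD, n = 2). Per kb of exon PSENEN exceeded U2AF1L4 by 203 times over both libraries, with an exact 95% interval of 68.8 to 987 that is wide because U2AF1L4 held so few counts. These are 332 of the 1845 exonic bases of PSENEN, and where in PSENEN its counts lie is not known. The neighbour IGFLR1, 10 bases away on the strand of U2AF1L4, held 66 and 91 counts, and AD000671.3, an antisense gene 1611 bases away on that strand, held 159 and 238.

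ZRSR2 (chromosome X, 15790472 to 15823260, plus strand) held 2 counts in replicate 1 and 0 in replicate 2, again under the limit. No gene covered its exons. Its processed copy ZRSR2P1 (chromosome 5, 112891610 to 112893079, plus strand) matched the ZRSR2 coding sequence at 96.5% of 1419 aligned bases and held 3 and 6 counts. ZRSR2P1 lies wholly under exons of SRP19 on its own strand, a signal recognition particle gene with 2 and 0 counts. On the other strand it lies within REEP5, a gene of endoplasmic reticulum shape, which held 117 and 158 counts. Per kb of exon, ZRSR2 and U2AF1L4 could not be ordered, with a ratio of 1.08 (exact 95% interval 0.124 to 13.0), nor could U2AF1L4 and SF1 (SF1 higher by 2.57, interval 0.735 to 13.8).

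The libraries could be compared for AC008735.2 and U2AF2, which held at least 10 counts in each, and 4 members were below. At scaled library sizes, replicate 2 over replicate 1 was 1.14 for AC008735.2 (exact 95% interval 0.982 to 1.32) and 1.26 for U2AF2 (0.680 to 2.40). An exact two-sided conditional binomial test over all 8983 genes with that many counts gave Benjamini-Hochberg adjusted p values of 0.680 and 0.959. So 0 of the 2 were called, against 0.501% of the genes tested, and their unadjusted exact p values were 0.0839 and 0.469. The interval for U2AF2 still allows a difference of more than 2-fold. The test compares 2 libraries of 1 group.

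Splice sites of the members' own genes give an idea of the sequence that U2AF2 recognises. No genome was used, so a 3' splice site could be read only where another annotated transcript covers the end of its intron, which held for 29 of 66 sites in the 5 protein-coding members. The readable sites are thus a selected part, and the rest may differ. All 29 introns ended in AG. Pyrimidines among the 18 bases from 20 to 3 bases before the exon ranged from 11 to 16 over the 8 readable sites of U2AF1, from 12 to 16 over 13 sites of U2AF1L4, and from 11 to 15 over 7 sites of SF1. The single readable site of ZRSR2 had 13, and 0 of the 14 sites of U2AF2 could be read. To show what such tracts look like, the richest site of U2AF1 and of SF1 is given, ties going to the site used by more coding transcripts, with the pair of U2AF1L4 sites that lies under PSENEN. Capitals mark the 18 bases counted, followed by the AG and the first 3 exon bases, all on the minus strand, that of each gene (GRCh38).
U2AF1, chr21:43094786-43094808: TTCTGTTTTTGTCTTTTCagttt
SF1, chr11:64767249-64767271: TGCTCTTTCCTTCCATCAagatc
U2AF1L4, chr19:35745210-35745232: TGTCTTTGCACCTTTTCCagggt
U2AF1L4, chr19:35745185-35745207: ACTGCTCTTTTTACTTTAagatc

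These held 16, 15, 15 and 14 pyrimidines of 18. The last U2AF1L4 site ends an intron in 6 annotated transcripts, 0 of them coding. Its bases also lie within the coding bases of U2AF1L4 shown above, so in that coding transcript they are exonic. The counts come per gene and not per site, so a site cannot be tied to reads. That holds also for U2AF1, which held 0 counts and shared 94.3% of its 50-base words with U2AF1L5.

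Other genes that act with U2AF at the 3' splice site were set beside the family through 5 lists of 41 genes, all measured. Of these, 9 reached 10 counts in both replicates, and the share over all protein-coding genes was 24.8%. Their median was 5 counts over both libraries and 1.36 per kb of exon, against 4 and 0.911 for all protein-coding genes. Among the 5 protein-coding members of the family only U2AF2 passed this minimum. The smallest adjusted p of the 9 list genes between the replicates was 0.732 in the exact binomial test.

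Proteins with a U2AF homology motif, the fold by which U2AF subunits grip their partners, were led by RBM39, a splicing coactivator, with 15 and 29 counts, and PUF60, a relative of U2AF2, with 15 and 26. Both lie near U2AF2 in counts, and neither has a gene opposite its exons. HTATSF1 followed with 5 and 8 counts, and RBM17 and RBM23 shared the lowest level with 0 and 1 each. Among U2 snRNP proteins, SF3B6 held 14 and 17, SF3B2 4 and 10, and SF3A3 3 and 10. SF3B5 and SNRPB2 were at 0. SF3B1, whose protein SF1 gives way to at the branch point, held 1 in each library.

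Helicases and U2-associated proteins were led by CHERP with 53 and 51 counts, DDX42 with 36 and 57 and SMNDC1 with 18 and 24, while U2SURP and DDX39B, the helicase that U2AF2 recruits, held 1 and 0 each. Regulators at the polypyrimidine tract were led by QKI with 12 and 16, DEK with 10 and 8, and TIAL1 with 6 and 10. PTBP1, which competes with U2AF2 for such tracts, held 2 and 4, and TIA1 and RBM5 were lowest with 0 and 1. Of the minor spliceosome proteins that work with ZRSR2, SNRNP25 held 53 and 58, RNPC3 47 and 65, SNRNP35 4 and 14, and SNRNP48 0. ZRSR2, with 2 and 0, lay between PDCD7 with 3 and 2 and ZMAT5 and ZCRB1 with 0 and 1 each. Counts this low do not order these genes.

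Of the 41 genes, 16 had genes opposite their exons. In 14 of them the opposite-strand genes together held more counts, as PSENEN and AC008735.2 did for U2AF1L4 and U2AF2. The share over all 8009 protein-coding genes with opposite-strand genes and any count was 58.1%. The 16 genes held 371 counts over both libraries and their opposite-strand genes 9202, all counts per whole gene. RBM5, with 1 count, lies opposite RBM5-AS1 and SEMA3F-AS1, which held 1523 and 2191 together. RBM23, also with 1 count, lies opposite PRMT5-AS1 with 567 and 758. The exceptions were DDX42, opposite CCDC47 with 21 and 33 counts, and SNRNP25, opposite POLR3K with 0 and 1.

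Cell type markers were also read in this table, which counts crosslinked RNA and not expression. The minimum of 10 counts in both replicates was met by 1 of 5 megakaryocyte markers (GP1BA, 312 and 413 counts). It was met by 0 of 12 markers of monocytes and granulocytes, T cells, B cells and hepatocytes. Over all protein-coding genes the share was 24.8%, and lists this short were not tested against it.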

How the data were processed

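The authors deposited raw counts per gene, per the file headers, as whole numbers for 2 libraries of U2AF2 eCLIP from HEL cells. Tallies of unassigned reads came with them and were left out of the levels here. Reads tallied in no feature numbered 36374618 in replicate 1 and 50621073 in replicate 2. The part of intronic reads among them was not tested. The tools and build named per the submitters' processing notes are STAR 2.7.0f, cutadapt and GRCh38.p10. The counting step, strand setting, annotation and duplicate removal are not given in the sources used here. Per the labels' protocols, cells received 400 mJ per square cm of ultraviolet light and reads were paired, of 100 bases. Total gene counts were 995428 and 1350116, so 0 counts allow up to 3.01 and 2.22 unscaled CPM.

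Genes, merged exons and overlaps came from GENCODE 29. The versions of SRP19 and ZRSR2P1 in the counts differed from that release, so lengths and overlaps may not match those used in counting. A gene was opposite another when its span covered any base of the other's exons. TMM factors (edgeR 4.0.16, R 4.3.3) from genes reaching 10 counts in both replicates scaled the library sizes, and 2 was the prior count for log2 CPM. Replicates were compared by exact conditional binomial tests, checked on simulated data, with Benjamini-Hochberg adjustment at 0.05. With 1 group no quasi-likelihood test exists. Sequence words were searched in 206694 transcripts in place of a genome. Alternatives used the size factors of DESeq2 1.42.0, other filters, lengths and word sizes. Python 3.11.15, numpy 2.4.6, scipy 1.17.1, pandas 2.3.3 and matplotlib 3.10.9 were used.

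Members and lists were chosen with earlier results of these data known. The genes named were the members, their copies, genes over a member's exons, the 3 highest and the lowest gene of each list, and the 3 genes of a member's class nearest in level. Neighbours within 5 kb, SF3B1, PTBP1, markers and the genes opposite list genes were added after values were seen, as were the comparisons of base composition and of distance to splice sites. A gene nearest in level to U2AF2 and the erythroid markers are not reported here.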

Additional observations from a re-analysis of the deposited data

How the results depend on the processing

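The number of genes that differed between the libraries was 45 in the exact binomial test, 49 with the size factors of DESeq2, 48 with unscaled totals and 62 with at least 50 counts in each library, and it was 71 with no filter, where more genes were tested. AC008735.2 and U2AF2 were not called under the scalings and filters tried for them. Per kb, AC008735.2 over U2AF2 was 115 with merged exons and 25.2 with gene span, 86.5 with the longest transcript and 15.7 with no length, and it was 111 to 123 when each library was left out in turn. The share of pairs with more counts per kb in the non-coding gene was 72.3%, 75.2% with gene span, and 71.0% to 71.7% with each library left out. With a prior count of 0.5 in place of 2, log2 CPM was 0.73 in place of 1.56 for U2AF1L4, 0.021 in place of 1.33 for ZRSR2 and 2.86 in place of 3.10 for SF1. U2AF1, at 0 counts, was given no log level. Of the list genes, 9 reached 10 counts in both replicates, and 4 reached 20. The share of words found in no gene elsewhere was 5.67% for U2AF1 with 50 bases, 3.38% with 30 and 10.6% with 100. For ZRSR2 it was 80.9%, 65.1% and 95.5%, and for U2AF1L4 it was 99.1%, 90.8% and 100%. U2AF1L4 and ZRSR2, each at or under 3 counts in both libraries, had too few counts for the replicate test. The cause of their low counts was not tested. No paired analysis was possible because the samples form 1 group.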
